A study of Mus musculus with 4 samples.

Results

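Homologous recombination and the Fanconi anaemia pathway repair broken and crosslinked DNA, and 9 of their genes were followed here: Brca1, Bard1, Palb2, Brca2, Rad54l, Exo1, Blm, Fanca and Fancd2. They were picked by name, with earlier results of these data known, from the 28250 genes with a deposited expression value for each library. All 9 had values well above the minimum set for testing, which 20336 genes passed. The cells were TBV2, a mouse embryonic stem cell (ESC) line that the labels describe as kept on feeder cells with LIF and plated on gelatin. RNA-seq libraries came from cells given solvent (2 libraries, solvent 1 and solvent 2) or 5 µM MS-275, an inhibitor of class I histone deacetylases (2 libraries, MS-275 1 and MS-275 2), each for 24 h. Both groups are of this single line, and no source says whether the 2 libraries of a group came from separate cultures, so the p-values measure the spread between libraries, which may be technical. The vehicle is called solvent here, since one source names DMSO and another ETOH.

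Homologous recombination restores a broken chromosome by copying an intact sister. Nucleases and helicases first trim the break to a single-stranded tail, and BRCA1, BARD1, PALB2 and BRCA2 then prepare it for the search for the matching sequence. The Fanconi pathway handles crosslinks between the DNA strands: a core complex that contains FANCA attaches ubiquitin to FANCD2 and its partner, and the lesion is then cut out and passed on to recombination. ESC divide quickly with a short gap before replication and are known for high expression of these genes, many of which are transcribed around S phase under E2F control.

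The promoters of Bard1, Brca1 and Fanca are shown because Bard1 and Brca1, whose products form a heterodimer, had lower values with MS-275 in both replicate pairs, while the value of Fanca did not keep a direction. Each is the 250 bases before the gene start, from RefSeq on GRCm38.p6 (a later build than the mm9 of the deposited files), written 5′ to 3′ on the strand of the gene. Capitals mark matches, on either strand, to TTTNNCGC (an E2F-type core), TTTGAA or TTCGAA (forms of the cell cycle homology region), CCAAT (the CCAAT box) and GGGCGG (the GC box). The Bard1 window is chr1:71102973-71103222, minus strand, the Brca1 window chr11:101551956-101552205, minus strand, and the Fanca window chr8:123318577-123318826, minus strand.
Bard1: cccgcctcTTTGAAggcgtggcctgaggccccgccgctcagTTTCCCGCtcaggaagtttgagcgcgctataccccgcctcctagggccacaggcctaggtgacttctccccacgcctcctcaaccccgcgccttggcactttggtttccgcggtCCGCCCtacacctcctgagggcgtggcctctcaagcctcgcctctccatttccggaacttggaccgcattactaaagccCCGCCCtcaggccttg
Brca1: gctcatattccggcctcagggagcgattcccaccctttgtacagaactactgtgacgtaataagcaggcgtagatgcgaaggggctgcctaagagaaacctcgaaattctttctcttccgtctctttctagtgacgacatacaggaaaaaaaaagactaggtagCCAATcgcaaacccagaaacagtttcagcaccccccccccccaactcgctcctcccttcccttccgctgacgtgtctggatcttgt
Fanca: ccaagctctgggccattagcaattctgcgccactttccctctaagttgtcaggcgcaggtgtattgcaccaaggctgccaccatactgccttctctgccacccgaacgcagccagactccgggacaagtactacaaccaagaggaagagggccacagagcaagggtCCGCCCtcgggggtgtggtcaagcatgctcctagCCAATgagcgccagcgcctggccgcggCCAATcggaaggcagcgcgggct

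Promoter entries matched 7 of the 9 genes, all but Fancd2 and Exo1. TTTNNCGC was found in Bard1, at -209 to -202 from the start, and in Brca2, and in 4.28% of 32851 mouse promoter windows of this length. TTTGAA was found in Bard1 alone, at -242 to -237, and in 16.0% of all windows, and TTCGAA in none of the 7 and in 1.34% of all windows. CCAAT was present in 4 of the 7 (Rad54l, Blm, Fanca and Brca1), with 33.8% of all windows, and GGGCGG in 5 (Bard1, Rad54l, Blm, Palb2 and Fanca), with 32.7% of all windows. No matches overlapped one another. The Brca1 window held only a CCAAT box, at -86 to -82, and the Fanca window held CCAAT at -50 to -46 and at -23 to -19. Such matches are letters in a window and do not show that a factor binds there, and this dataset holds no binding measurement.

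The value per gene is a normalized signal made by the authors with Genomatix, in arbitrary units and with no stated formula. The summed values of a library were 2489.6 and 2493 in the libraries of replicate 1 and 3629 and 4359 in those of replicate 2, so values of different replicates are on unequal scales. The authors' headers name replicate 1 of both conditions alike, as old, while the names of the alignment files go against these headers. Which replicate is the old one is therefore not settled. As the headers name both conditions alike, the replicates were also treated as pairs. The alignments behind the libraries numbered 9785619 to 23467935. In the files deposited with replicate 1, 53.2% (solvent) and 54.4% (MS-275) of alignments repeated a position already seen, and none did in those of replicate 2. Values of a library tracked the alignment file of its condition's other replicate better than its own file (for solvent 1, r = 0.920 over 12491 genes against 0.886 over 12494, which are not independent replicates), so replicate numbers of values and of alignments are kept apart below. The groups and the pairs are the same under either numbering. All 12 ESC markers were above the minimum in every library.

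Of the 9 repair genes, 7 had lower values with MS-275 in both replicate pairs (Brca1, Bard1, Palb2, Rad54l, Exo1, Blm and Fancd2), against 26.5% of all genes tested. The exceptions were Brca2 and Fanca, and 0 of the 9 were higher in both pairs, against 50% of all genes. Because the 9 were chosen with earlier results known, these counts do not set an unselected list beside all genes. The median log2 fold change of the 9 was -0.35, beside 0.20 over all 20336 genes, and each of the 9 lay below that median. No member passed limma's test without a replicate block at an adjusted p of 0.05 (0 of 9, beside 0% of all genes called lower and 0.00492% called higher), and 0 members had an unadjusted p under 0.05, beside 2.77% of all genes as lower. With the replicate as a block, Brca1 was called lower (1 of 9, beside 6.46% of all genes), and 3 members had an unadjusted p under 0.05, beside 10.2%. P-values with the block rest on how far the within-pair differences disagree, with variance shared across genes, and not on the spread within a group. None was called higher with the block, beside 21% of all genes. As these were bulk libraries, fewer cells that express a gene and less RNA per cell cannot be told apart.

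**Figure D1:**
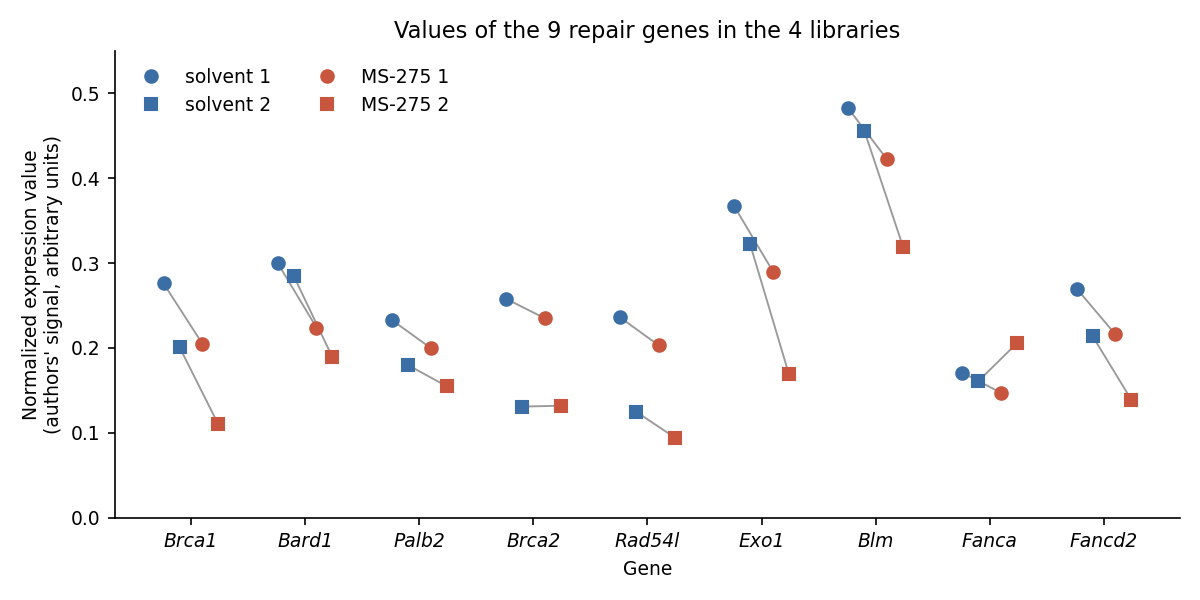
Normalized expression value (y axis, the authors' arbitrary units) of each gene (x axis) in the 4 libraries, circles for replicate 1 and squares for replicate 2, solvent in blue and MS-275 in red, with grey lines joining the libraries of a pair. The lines of 7 genes slope down in both pairs, from 0.482 to 0.422 and from 0.456 to 0.319 for Blm, while the second line of Brca2 is flat and that of Fanca slopes up.

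BRCA1 and BARD1 form a ubiquitin ligase that is needed for the trimming of breaks. Brca1 (Entrez 12189, chromosome 11 of mm9 from 101350078 to 101413269, 23 merged exons) had values of 0.276 and 0.201 in solvent 1 and 2 and of 0.205 and 0.110 in MS-275 1 and 2. The groups overlapped only by the narrow margin between solvent 2 and MS-275 1. Within the pairs the treated value of Brca1 was 25.8% and 44.9% lower. Its log2 fold change was -0.63 (standard error 0.425, limma adjusted p = 0.541), which did not pass, and with the block it fell by 0.63 on the log2 scale (standard error 0.223, limma adjusted p = 0.0473). Over the other fits with a block its adjusted p from limma ranged from 0.000336 to 0.00876.

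Bard1 (Entrez 12021, chromosome 1 from 71074072 to 71149720, 11 merged exons) had values of 0.300 and 0.285 with solvent and 0.224 and 0.189 with MS-275. The solvent libraries lay close together and the groups did not overlap. In means this was 0.293 ± 0.0103 (SD, n = 2) against 0.206 ± 0.0250 (SD, n = 2). The log2 fold change was -0.50, and limma's adjusted p was 0.601 unblocked and 0.107 blocked. Bard1 passed with the block once the values had also been scaled by median ratio (limma adjusted p = 0.0108) or quantile normalized (limma adjusted p = 0.0270). Both partners of the heterodimer were thus lower with MS-275 in each pair.

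PALB2 bridges BRCA1 to BRCA2, and BRCA2 acts on the single-stranded tail. Palb2 (Entrez 233826, chromosome 7 from 129250776 to 129276460) had values of 0.233 and 0.180 with solvent and 0.200 and 0.155 with MS-275. The same share was missing in both pairs, 14.0% and 13.7%, and each group's spread was wider than that difference, so that the groups overlapped. Its log2 fold change was -0.21 (standard error 0.381, limma adjusted p = 0.883 unblocked and 0.511 blocked). Brca2 (Entrez 12190, chromosome 5 from 151325205 to 151372321, 27 merged exons) had values of 0.258 and 0.131 with solvent and 0.235 and 0.132 with MS-275. In Brca2 the replicates differed far more than the conditions: solvent 1 was 1.97 times solvent 2, and MS-275 1 was 1.78 times MS-275 2. The log2 fold change of Brca2 was -0.06 (standard error 0.461, limma adjusted p = 0.984).

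Rad54l, Exo1 and Blm encode enzymes that act on the DNA itself. RAD54L is a DNA-dependent motor that helps the tail invade the matching sequence. Rad54l (Entrez 19366, chromosome 4 from 115766869 to 115796295) had values of 0.236 and 0.125 with solvent and 0.203 and 0.0945 with MS-275. As for Brca2 the replicates stood further apart than the conditions, although MS-275 was lower in both pairs, by 13.7% and 24.3%. The log2 fold change was -0.30 (limma adjusted p = 0.863 unblocked and 0.339 blocked). On mm9, 1184 of its 7706 exon bases are shared with Lrrc41 on the opposite strand, and no source states that the values were counted by strand, so reads of the 2 genes there cannot be told apart.

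EXO1 is the exonuclease that lengthens the tail at a trimmed break. Exo1 (Entrez 26909, chromosome 1 from 177810909 to 177841527, 15 merged exons) had values of 0.367 and 0.322 with solvent and 0.290 and 0.169 with MS-275. The groups did not overlap, and MS-275 2 was the lowest library. Within the pairs Exo1 was 21.1% and 47.4% lower, and its log2 fold change was -0.62 (standard error 0.423, limma adjusted p = 0.544 unblocked and 0.0591 blocked). With the block it passed once the values were scaled by median ratio (limma adjusted p = 0.00502) or quantile normalized (limma adjusted p = 0.0129).

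BLM is a helicase that both trims breaks and takes apart recombination intermediates. Blm (Entrez 12144, chromosome 7 from 87599879 to 87680005, 23 merged exons) had values of 0.482 and 0.456 with solvent and 0.422 and 0.319 with MS-275. The groups did not overlap, with a narrow solvent spread. Its log2 fold change was -0.35 (standard error 0.451, limma adjusted p = 0.812 unblocked and 0.304 blocked). Values that did not overlap and were lower with MS-275 were thus seen in 3 of the 9 genes (Bard1, Blm and Exo1), beside 12% of all genes tested.

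FANCA and FANCD2 stand at successive steps of the Fanconi pathway, as a part of the core complex and as its substrate. Fanca (Entrez 14087, chromosome 8 from 125792200 to 125842476, 44 merged exons) had values of 0.171 and 0.161 with solvent and 0.147 and 0.206 with MS-275. The MS-275 libraries lay on either side of the solvent libraries, which were close together. The log2 ratio was -0.21 in the first pair and 0.34 in the second, and the fold change of 0.07 (limma adjusted p = 0.972) became -0.04 after quantile normalization and -0.21 after median-ratio scaling, so no direction is given for Fanca. Of its 8491 exon bases, 652 are shared with Zfp276 on the other strand, and Fancd2 shares 257 of 7937 with 4931417G12Rik. Fancd2 (Entrez 211651, chromosome 6 from 113481676 to 113547011, 43 merged exons) had values of 0.270 and 0.214 with solvent and 0.216 and 0.139 with MS-275. Those groups touched, as solvent 2 and MS-275 1 were almost equal, and MS-275 was lower in both pairs, by 20.0% and 35.2%. The log2 fold change of Fancd2 was -0.46 (standard error 0.398, limma adjusted p = 0.663 unblocked and 0.133 blocked).

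**Figure D2:**
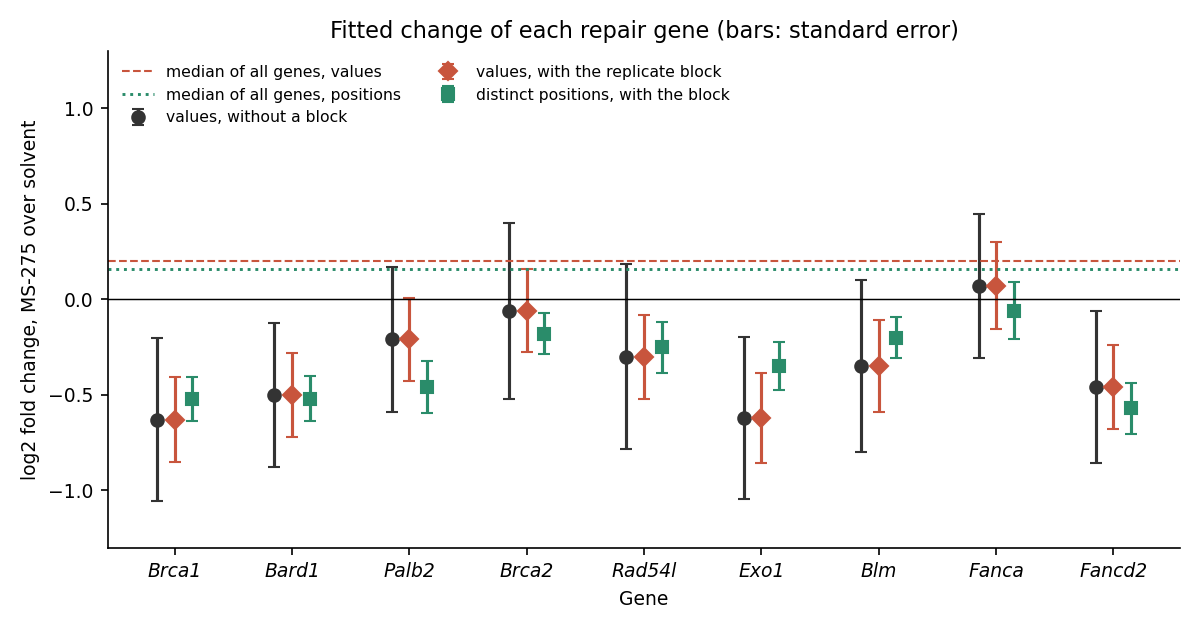
Log2 fold change of MS-275 over solvent (y axis) for each gene (x axis) with its standard error, from the values without a block (black), the values with the replicate block (red) and distinct alignment positions with the block (green). The dashed and dotted lines are the medians of all genes, 0.20 for the values and 0.16 for the positions, and every point lies below its line.

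Since genes as a whole were shifted upwards in the authors' values, the same comparison was made after scaling. Median-ratio scaling moved the median of all genes to -0.01 and that of the 9 to -0.63, and quantile normalization moved them to -0.03 and -0.36. With the block, 4 of the 9 (Brca1, Bard1, Fancd2 and Exo1) were called lower under either scaling, beside 13.8% of all genes with the first and 14.6% with the second. These 4 also passed with the block after trends on GC content and exon length had been removed, beside 15.3% of all genes. In these fits 0 of the 9 were called higher, where 16.4% (median ratio), 14.4% (quantile) and 14.3% (GC content and length) of all genes were. Under both scalings 8 of the 9 were lower in both pairs, Brca2 now among them, beside 39.6% and 39.4% of all genes, and 0 were higher in both, beside 36.8% and 36.3%.

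**Figure D3:**
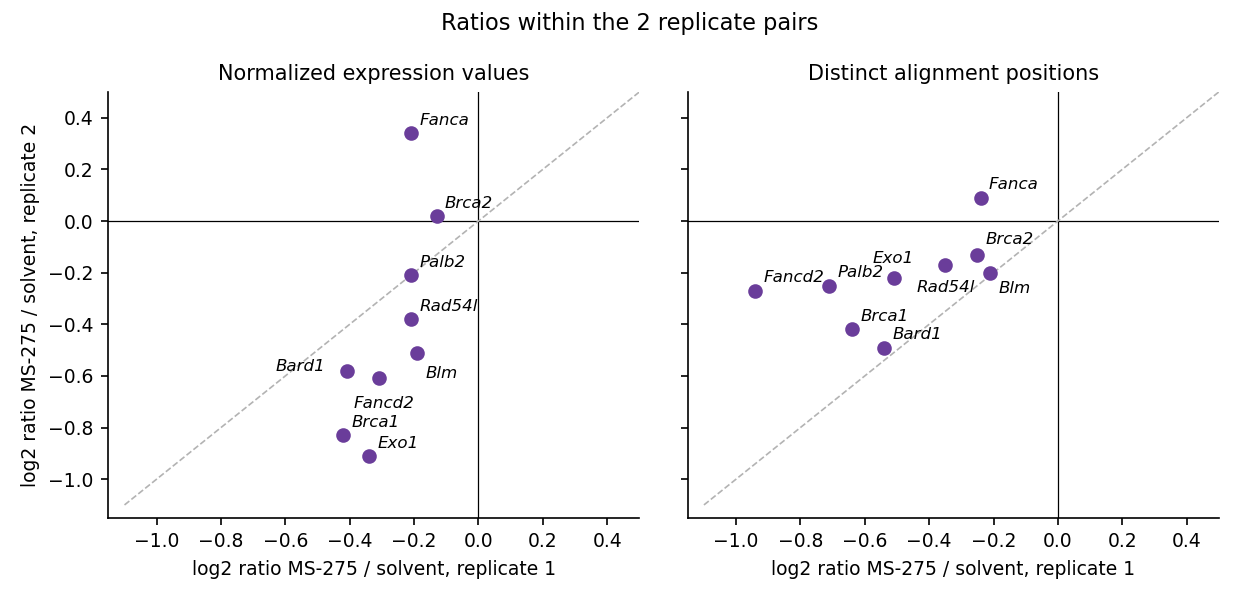
Log2 ratio of MS-275 to solvent within replicate 1 (x axis) and replicate 2 (y axis) for each gene, from the normalized values (left) and from distinct alignment positions (right), each library scaled to its total, with the line of equal ratios dashed. Replicate numbers in the right panel are those of the alignment files, which the values of the same number tracked less well. In the left panel most genes lie below the line (Brca1 at -0.42 and -0.83). In the right panel every gene lies above it (Fancd2 at -0.94 and -0.27), and Fanca is the only gene with opposite signs in both panels.

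The deposited alignments allowed a count per gene from the same reads. To set aside repeated reads, each position and strand was counted once per library on the mm9 exons that belong to 1 gene alone. Brca1 had 1801 and 1837 such positions with solvent and 938 and 1535 with MS-275 (alignment files of replicates 1 and 2). Scaled per kb of exon and to a fixed library total, this was 30.7 and 32.9 with solvent and 19.7 and 24.6 with MS-275, and the groups did not overlap. On the same scale Bard1 had 43.0 and 38.7 against 29.5 and 27.5, also without overlap. Fancd2 had 28.4 and 29.3 against 14.8 and 24.3, where the lowest library is that of the first MS-275 file. Palb2 had 23.9 and 26.7 against 14.6 and 22.5. Lower positions without overlap were found in 6 of the 9 (these 4, Blm and Exo1), beside 22.1% of 15057 genes counted. A position held by many reads still counts once, which limits how far well-covered genes can differ on this scale. In the files of replicate 1, Blm went from 61.0 to 43.9 with all alignments counted, and from 62.5 to 54.0 on distinct positions.

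By limma-voom on these counts without a block, Brca1 fell by 0.52 on the log2 scale (standard error 0.150, adjusted p = 0.0450) and Bard1 fell by 0.52 (standard error 0.140, adjusted p = 0.0351). They were the only 2 of the 9 to pass, beside 5.78% of all genes called lower and 17.2% called higher. With the block, Brca1, Bard1, Palb2, Fancd2 and Exo1 passed (5 of 9, beside 14.8% of all genes), with log2 fold changes between -0.57 (Fancd2) and -0.35 (Exo1). Brca2, Rad54l, Blm and Fanca did not pass, at -0.18, -0.25, -0.20 and -0.06, and 0 of the 9 were called higher, beside 32.1%. Scaled positions were lower in both file pairs for 8 of the 9, all but Fanca, beside 30.1% of all genes, and higher in both for 0, beside 51.1%. The size of the change depended on the file pair: for Fancd2 the ratio was -0.94 in the first pair of files and -0.27 in the second, and for Palb2 it was -0.71 and -0.25. These counts and the authors' values share their reads and are not independent measurements.

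Positions on this scale also allow levels to be set beside each other, and these are levels, not differences. The authors' values have no stated formula, so levels were not read from them here. With solvent Blm was highest, at 65.0 ± 3.46 (SD, n = 2), then Bard1, at 40.9 ± 3.04 (SD, n = 2). Brca2 followed at 33.1 ± 7.28 (SD, n = 2), and its libraries (28.0 and 38.3) spanned those of Brca1, Exo1 and Fancd2, so no order is given among these 4. Palb2 (25.3 ± 1.98, SD, n = 2) and Rad54l (18.9 ± 3.39, SD, n = 2) were lower, and Fanca was lowest, with libraries at 9.60 and 10.4. The highest and lowest of the 9 with solvent were also the highest and lowest with MS-275, at 56.3 ± 3.25 and 9.57 ± 2.03 (SD, n = 2). Exon lengths merge all annotated transcripts of a gene, so unused exons lower its level. Counting a position once also narrows the gaps between levels. In the file of solvent 1, Blm and Fanca were at 61.0 and 5.14 with all alignments, and at 62.5 and 9.60 on positions.

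The counts were also followed along each transcript. The exons of each gene were joined and split into 4 parts of equal length, from the 5′ to the 3′ end, and the ratio of MS-275 to solvent in positions, scaled to the library total, was taken in each (a view chosen after the exon counts had been seen). In the files of replicate 1, the median ratio of 6347 protein-coding genes was itself uneven, at 0.04, -0.18, -0.10 and 0.15 on the log2 scale from 5′ to 3′, and 83.9% of genes had a higher mean ratio in the outer parts than in the inner ones. In the files of replicate 2 that share was 50.6%, and the medians were 0.14, 0.03, -0.03 and -0.13. The part that this difference in coverage has in the results of the 9 genes was not tested.

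Bard1 was lower in all 4 parts of both file pairs, by log2 ratios from -1.0 to -0.26 in the first and from -0.77 to -0.30 in the second. Brca1 was likewise lower throughout, from -0.80 to -0.36 and from -0.53 to -0.27. For these partners no part of the transcript reached the solvent level with MS-275. Fancd2 was lower throughout too, with its inner parts at -1.05 and -1.20 and its outer parts at -0.58 and -0.78 in the first pair. Palb2 showed the same contrast in the first pair, with -1.1 and -1.12 inside and -0.62 and -0.40 outside. In the second pair Fancd2 ranged from -0.63 to -0.13 and Palb2 from -0.52 to 0.00, so the low inner parts were seen in the first file pair and not in the second. Exo1 was uneven along its length. Its 5′ parts were lower with MS-275 in both pairs (-0.91 and -0.40, then -0.28 and -0.42). The next part was not lower in either pair, at 0.09 and then 0.18. Its positions went from 82 to 71 and from 64 to 81 before scaling to the library total. The last part was at -0.05 in the first pair (73 to 57 positions) and at 1.41 in the second (35 to 105). Both 3′ parts lie within the last merged exon of Exo1 (2967 of 5506 exon bases) and were thinly covered. With solvent in the first pair they held 82 and 73 positions, beside 463 and 501 in the 5′ parts.

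**Figure D4:**
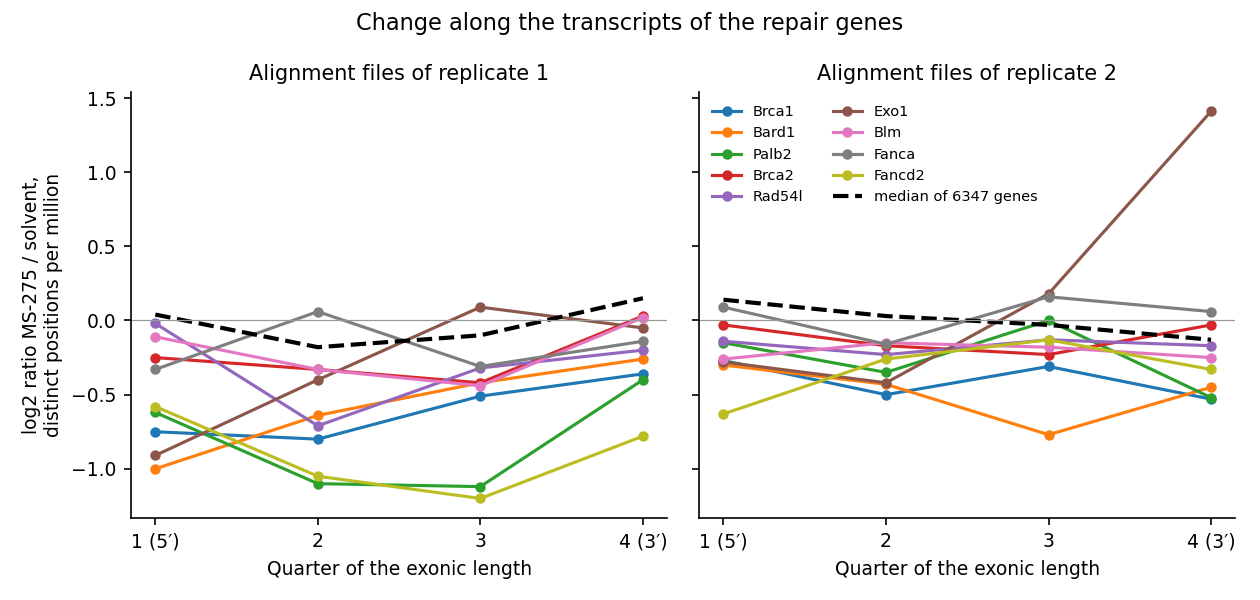
Log2 ratio of MS-275 to solvent in distinct positions scaled to the library total (y axis) for 4 equal parts of the exonic length from 5′ to 3′ (x axis), for each of the 9 genes and, dashed, the median of 6347 genes, with the files of replicate 1 on the left and of replicate 2 on the right. Bard1 and Brca1 stay below 0 in every part, the median dips in the middle on the left alone, and Exo1 reaches 1.41 at its 3′ end on the right.

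Genes that work beside the 9 were described from lists of their own. Their counts below are from limma with the block on the authors' values unless another fit is named, where 6.46% of all genes were called lower and 21% higher, and without the block 0 genes of any list were called. With median-ratio scaling added those shares were 13.8% and 16.4%, and on positions with the block 14.8% and 32.1%. Of 34 other homologous recombination genes, 1 was called lower and 1 higher. With median-ratio scaling 11 were lower and 1 higher, and on positions 12 were lower and 4 higher. Nbn, which belongs to the complex that first senses a break, fell with the block (-1.12 on the log2 scale, limma adjusted p = 0.00544), from 0.167 and 0.143 to 0.111 and 0.0420. Mus81, a nuclease that cuts joined DNA molecules, rose by 1.05 (limma adjusted p = 0.00478), from 0.0639 and 0.0383 to 0.138 and 0.0841. A630055G03Rik was at -0.67 and Mcm9, a helicase, at 0.46, and neither passed on the values with the block. On positions with the block both passed (-0.86 and 0.68, limma-voom adjusted p = 0.0021 and 0.00157). The median of the 34 was -0.16, between that of the 9 repair genes and that of all genes, and -0.43 with median-ratio scaling.

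Among 20 other Fanconi genes 3 were called higher and 1 lower with the block. With median-ratio scaling 2 were higher and 3 lower, and on positions 3 were higher and 3 lower. On the unscaled values with the block, those called higher were Slx4, a scaffold for nucleases (0.94, limma adjusted p = 0.00765), Fance, a core complex subunit (0.89, limma adjusted p = 0.0117), and Ercc4, a nuclease of crosslink repair (0.74, limma adjusted p = 0.0480). The only gene called lower there was 2610002J02Rik (-0.77, limma adjusted p = 0.0326), and Usp1, which takes ubiquitin off FANCD2, was at -0.60 without passing. On positions with the block Usp1 passed (-0.36, limma-voom adjusted p = 0.0259). The median of the 20 was -0.04, and -0.32 with median-ratio scaling. The difference between these genes and those of homologous recombination was not tested.

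Of 23 checkpoint and BRCA1-A complex genes, 4 were called lower with the block and 1 higher. With median-ratio scaling 8 were lower and 0 higher, and on positions 9 were lower and 2 higher. Trp53, the gene of p53, fell by 0.93 on the log2 scale and Chek1, the kinase that slows the cycle at damaged DNA, fell by 0.91 (limma adjusted p = 0.0206 and 0.0117), and Timeless and Brcc3 were the others. H2afx, the histone variant marked at breaks, rose by 0.94 (limma adjusted p = 0.0360). Its values were 0.501 and 0.982 with solvent and 0.792 and 2.29 with MS-275. Uimc1 (0.58) did not pass on the values with the block, but did on positions with the block (0.33, limma-voom adjusted p = 0.0489). The median was -0.16, and -0.44 with median-ratio scaling.

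The other repair routes were described in the same way. In base excision repair 4 of 15 genes were called lower and 0 higher, among them the glycosylase genes Neil2 (-1.44) and Ung (-1.14), while Mpg (0.60) and Polb (0.33) did not pass. In mismatch repair 1 of 6 was called lower, Msh6 (-0.93), a damage sensor, with Mlh3 at -0.54, Pms1 at 0.15 and Msh3 at 0.11. In end joining 1 of 13 was called lower, Xrcc5 (-0.83), which encodes a Ku subunit, with Parp1 at -0.38, Xrcc4 at 0.52 and Lig4 at 0.37. In nucleotide excision repair 0 of 15 were called, where Gtf2h1 was at -0.45, Rad23b at -0.24, Cetn2 at 0.59 and Ercc1 at 0.57. The medians of these 4 lists were -0.18, -0.23, -0.13 and 0.14, all above the -0.35 of the 9 genes. With median-ratio scaling they were -0.45, -0.51, -0.39 and -0.13, beside -0.63 for the 9. Quantile normalization gave -0.32, -0.23, -0.27 and 0.02, beside -0.36. As the 9 and the lists were chosen with earlier results known, this order does not show a fall particular to the 9. With median-ratio scaling 7, 2, 2 and 1 genes of these lists were called lower, and on positions 6, 2, 2 and 1. On positions Cetn2 (0.47) and Ercc1 (0.51) were called higher. No other gene of these lists was called higher in any of these fits.

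**Figure D5:**
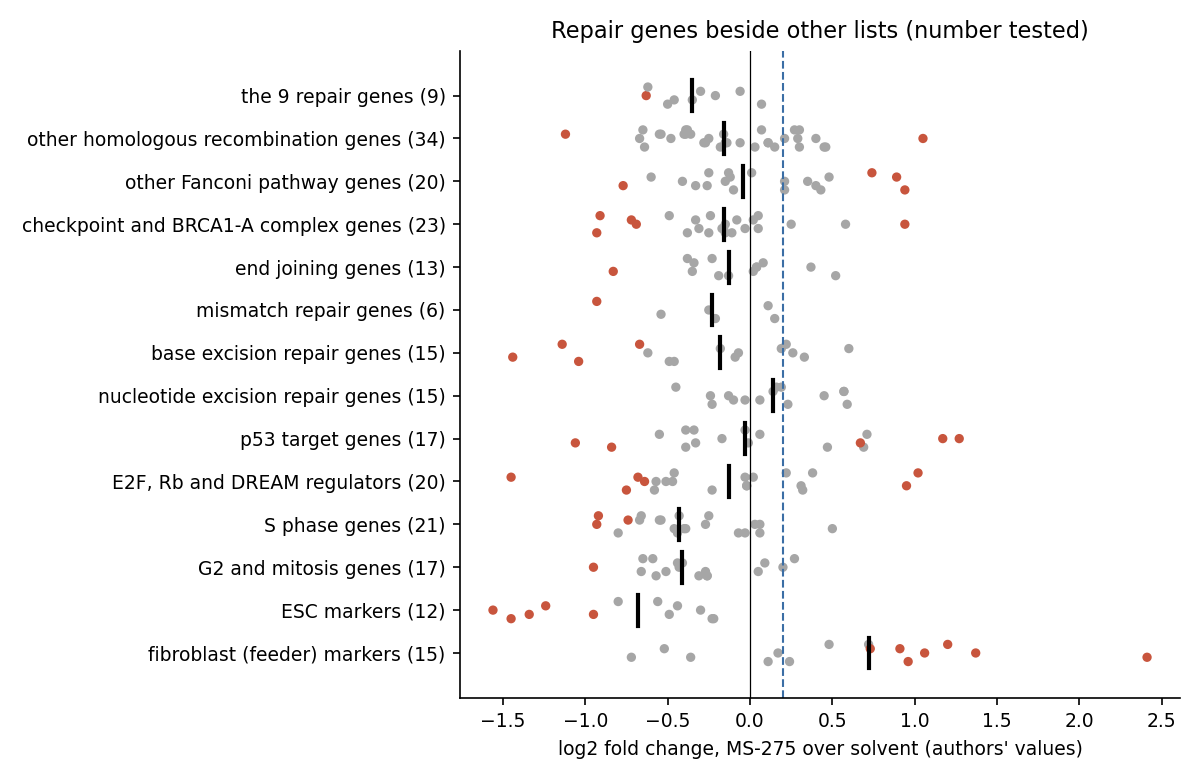
Log2 fold change of MS-275 over solvent (x axis) for each tested gene of the lists (y axis, number tested in brackets), red where the gene passed limma with the replicate block, with each list's median as a black bar. The blue dashed line is the median of all genes, 0.20. The 9 repair genes lie to its left with a median of -0.35, and the lists of ESC markers (-0.68) and fibroblast markers (0.72) lie furthest apart.

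Genes of the cell cycle and of cell identity were listed as well, and their part in the values of the 9 was not tested. Of 21 S phase genes, 3 were called lower with the block and 0 higher, with a median of -0.43 and 17 lower in both pairs, beside 26.5% of all genes. With median-ratio scaling 12 were called lower, and on positions 12 lower and 1 higher. On the values with the block Mcm5 (-0.93) and Mcm2 (-0.92), subunits of the replicative helicase, passed, and Ccne2 (0.50), which drives entry into S phase, did not. Ccne2 was the gene called higher on positions (0.55, limma-voom adjusted p = 0.00682). The 17 genes of G2 and mitosis had a median of -0.41 with 1 called lower, Kif11 (-0.95), a motor of the spindle, while Ccnb1 was at -0.66, Cdk1 at 0.27 and Birc5 at 0.20. With median-ratio scaling 9 of them were called lower (median -0.70), and on positions 7. Of 20 E2F, Rb and DREAM regulators, 4 were called lower and 2 higher: Mybl2 (-1.45) and Lin52 (-0.75) fell most with the block, and Rb1 (1.02) and E2f2 (0.95) rose most. With median-ratio scaling 9 of these regulators were called lower and 1 higher, and on positions 9 and 3. In the list of 17 p53 target genes 2 were called lower and 3 higher, with Zmat3 (-1.06) and Phlda3 (-0.84) against Pmaip1 (1.27) and Fas (1.17). With median-ratio scaling the counts were 4 lower and 2 higher, and on positions 4 and 5.

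The 12 ESC markers were lower with MS-275 in both pairs, and 5 were called lower with the block, 8 with median-ratio scaling and 7 on positions. For Dppa5a the values of the first pair were equal when rounded (0.293 and 0.293), and on positions with the block it was at 0.08. Fgf4 (-1.56) and Utf1 (-1.45) were the lowest, and Dppa5a (-0.22) and Nanog (-0.23) did not pass. Their summed value was 7.0 and 24.4 with solvent and 5.41 and 14.1 with MS-275. Of 15 tested fibroblast markers, which feeder cells would carry, 7 were called higher with the block and 0 lower (5 and 1 with median-ratio scaling), led by Col1a1 (2.41) and Fbn1 (1.37), with Dcn at -0.72 and Col3a1 at -0.52. Summed over the list they were at 0.483 and 0.591 with solvent and 0.866 and 1.02 with MS-275, and 1 of them was under the minimum in each solvent library (Lum in solvent 1 and Twist2 in solvent 2). The share of feeder cells in each library is not given in the sources used here.

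Some genes outside the lists had a pattern over the 4 libraries close to that of the 9. The likeness was the root-mean-square distance, on the log2 scale, between a gene's values centred on their own mean and the median of the centred values of the 9, which was 0.39, 0.07, 0.07 and -0.43 in solvent 1, solvent 2, MS-275 1 and MS-275 2. The nearest were Birc2 (0.0296), Mfsd10 (0.0301), Arl5b (0.0339), Tbkbp1 (0.0376) and Fzr1 (0.0392). Fancd2 was the member nearest to the median pattern (0.0541), then Blm (0.103) and Palb2 (0.116). Fanca was furthest (0.428), followed by Brca2 (0.304) and Rad54l (0.288).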

How the data were processed

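RNA-seq of TBV2 cells was analysed in 4 libraries, 2 per group, grouped by their titles. Per the paper, poly(A) RNA was copied with random hexamers, sequenced on a GAIIx and mapped to mm9. The aligner is not given in the sources used here. The authors deposited a normalized expression signal per gene (Genomatix) and the alignments (35 bases, 9785619 to 23467935 per library). Shorter tables and tables of the authors' own ratios were not used. The signal values are not counts.

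Values were tested as log2(value + 0.005) with limma 3.58.1 (R 4.3.3; lmFit, eBayes with a trend) for genes at 0.001 or more in 2 or more libraries, with Benjamini-Hochberg adjustment over all 20336 and a threshold of 0.05. Deviations from group means correlated at 0.764 between libraries of the same replicate number, so the replicates were taken as pairs in the fits with a block. Distinct positions were counted on GENCODE M1 exons (mm9) with Python 3.11.15 and numpy 2.4.6, and genes with 10 or more in 2 libraries were tested with limma-voom. Tables and plots used pandas 2.3.3 and matplotlib 3.10.9. Alternatives were a block, pseudocounts of 0.001 and 0.02, other filters and scalings, eBayes without a trend, GC content and length trends removed (86.2% of genes tested had both), positions, and each library left out. The fits were tested on simulated data.

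The members and lists were chosen with earlier results of these data known. All 9 members are named, then from each other list the 2 largest falls and 2 largest rises, and the 5 genes of nearest pattern; Ercc4, Timeless and Brcc3 were named after their values were seen. Of the list entries, 227 matched by symbol, 11 by Entrez identifier and 5 were not matched. Among the unmatched, Claspn in the checkpoint list was a misspelling of Clspn, so that gene was not looked up. 1 gene that this rule names is not reported here. Other doses were not analysed here. Intervals for counting error were not computed, as repeated reads are not independent molecules.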

Additional observations from a re-analysis of the deposited data

How the results depend on the processing

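The count of the 9 repair genes called lower, 0 in the fit without a block, was also 0 with other pseudocounts, filters, scalings and eBayes settings without a block and with each library left out (lowest 0, highest 0; the lone library of a group is then assumed to vary like the others). It was 1 with the replicate block, 4 when the block went with quantile normalization, median-ratio scaling or GC and length trends removed, 2 on distinct alignment positions and 5 on these with the block. The count called higher was 0 in all fits run. The 7 genes lower in both pairs became 8 under both scalings and on positions.

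The median of the 9 moved by more than the spread between the pairs (SD 0.21) with median-ratio scaling (-0.63, with or without the replicate block), and ranged from -0.62 without MS-275 replicate 1 to -0.15 without MS-275 replicate 2. Fanca, at 0.07, turned to -0.04 (quantile normalization), -0.21 (median-ratio scaling), -0.11 (GC and length trends removed), -0.05 (positions) and -0.06 (positions with the block), with values from -0.17 to 0.30 when a library was left out. The fits with a library left out had no block, so each compared unlike mixes of replicates, whose values are on unequal scales. Within the pairs Brca2 was at -0.13 and 0.02 and Rad54l at -0.21 and -0.38. With a library left out Brca2 ranged from -0.53 to 0.42 and Rad54l from -0.83 to 0.24, so neither kept its sign. The other 6 stayed below 0. Brca1 went from -1.06 to -0.20, Exo1 from -1.0 to -0.24, Fancd2 from -0.77 to -0.15 and Blm from -0.55 to -0.15, the first of each without MS-275 replicate 1 and the second without MS-275 replicate 2, and Bard1 from -0.62 to -0.38 and Palb2 from -0.39 to -0.03. For these changes the cause was not tested. Of 153 combinations of a gene and an alternative, 121 kept direction and side of the threshold, 20 passed it newly and 12 changed sign.

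The spread of a group rests on a single difference between 2 libraries, and the signal values carry no depth of their own. Members passed the test only in fits with the block or on positions.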
